A study of Mus musculus with 20 samples.

Results

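The cytosolic ribosome consists of a large and a small subunit, each made of many proteins on a scaffold of ribosomal RNA, and the genes of these proteins were followed here across neurospheres of the adult mouse brain. The genes were taken by name: a symbol of the form Rpl or Rps followed by a number with an optional a, l or x, the stalk proteins Rplp0, Rplp1 and Rplp2, and Rpsa. The rule found 80 of the 36724 genes in the deposited expression table, of which 46 belong to the large subunit, 31 to the small subunit and 3 to the stalk. They lie on 19 chromosomes, with 14 on chromosome 7, 7 on chromosome 11 and 4 on the X.

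Neurospheres are free-floating clusters grown from neural stem and progenitor cells in EGF and FGF. The 20 RNA-seq libraries came from C57BL6 mice of 8 to 12 weeks and compared animals labelled as Egfl7 knockouts with wild types. Egfl7 encodes a secreted protein known mainly from blood vessels. SVZ spheres, from the subventricular zone, were grown for 3 days and comprised 3 knockout and 3 wild type libraries, all from male donors. First-round hippocampal spheres, called HC1, were grown for 5 days and comprised 3 libraries from male knockouts and 3 from female wild types, and in HC1 the donor's sex cannot be told apart from genotype. Second-round hippocampal spheres, called HC2, were also grown for 5 days and comprised 4 knockout and 4 wild type libraries from male donors. The labels describe the animals as knockout or wild type without naming the allele, and no spheres were treated. Each library title names 1 mouse.

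Ribosomal protein mRNAs are among the most abundant of a dividing cell, and their products assemble in fixed proportion, so the genes are usually expressed together. Most of these mRNAs begin with a run of pyrimidines at the cap, the 5′ terminal oligopyrimidine or TOP motif. Through this motif the kinase complex mTORC1 and the RNA-binding protein LARP1 control their translation and stability. Most ribosomal protein genes also have processed pseudogenes or retrogenes elsewhere in the genome, which makes short reads from them hard to place.

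The start regions of 7 genes are printed first, picked from the 16 with at least 5 C or T bases from an annotated start. Rps29, Rpl12, Rpl23, Rpl9, Rps16 and Rpl19, which the results also name, are not among those 16. They lack either such a run or an annotated start. Rpl28, Rpl38, Rps10 and Rps18 were higher in SVZ than in HC1 spheres. Rps27 was much lower in HC2 than in HC1 spheres, and Rpl7a and Rps21 hardly differed between those rounds. Each run gives 15 bases before and 15 bases from the start annotated by RefSeq on GRCm38.p6, read 5′ to 3′ on the gene's strand, and capitals mark the unbroken stretch of C and T across that start within the window.
Rpl28: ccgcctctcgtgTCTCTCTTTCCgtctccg
Rpl38: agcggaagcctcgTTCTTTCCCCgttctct
Rps10: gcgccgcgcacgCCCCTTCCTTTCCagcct
Rps18: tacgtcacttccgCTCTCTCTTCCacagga
Rps27: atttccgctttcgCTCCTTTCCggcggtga
Rpl7a: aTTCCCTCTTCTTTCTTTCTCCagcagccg
Rps21: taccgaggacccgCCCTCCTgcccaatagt

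These windows are chr7:4792950-4792979 (Rpl28, plus strand), chr11:114668565-114668594 (Rpl38, plus), chr17:27635230-27635259 (Rps10, minus), chr17:33955651-33955680 (Rps18, minus), chr3:90213634-90213663 (Rps27, minus), chr2:26910792-26910821 (Rpl7a, plus) and chr2:180257364-180257393 (Rps21, plus). Each window covers the end of the promoter and the first bases of exon 1. Rpl7a and Rps21, which hardly differed between the rounds, carry a run as Rps27 does, since all the printed genes were picked for one. RefSeq starts were found for 60 of the 80 genes. At least 5 bases of only C and T from the annotated start were present in 16 of these 60 genes (26.7%), against 5.28% of the 27025 genes with a start in the same table. The letters ACTTCCG, on either strand of the 300 bases from 250 before to 50 after the start, occurred in 21 of the 60 genes (35%) and in 7.2% of all genes. The letters CTTTCC, which can be part of a C and T run, occurred on either strand in 53.3% of the 60 and in 29.3% of all genes.

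Levels were read as RPKM, reads scaled to the length of the gene and the size of the library. The scaling is meant to let genes of different length be set side by side, but the gene lengths used are not stated. Relative sequencing depth, estimated from the steps between low values, was 0.97 to 1.15 times that of HC1 knockout replicate 1 in the first-round libraries and 1.47 to 2.58 times in HC2. The check of Egfl7 itself found 2 libraries against their labels: SVZ knockout replicate 2 had 2.86 RPKM and SVZ wild type replicate 3 was listed at 0. In the other libraries Egfl7 was at 0 or 0.094 RPKM in knockouts and between 0.566 and 2.99 in wild types. Neural stem and progenitor markers were present in each group (median of 10 genes, 104 to 215 RPKM). Neuron and oligodendrocyte lists had group medians of 3.43 to 8.66 and 0.667 to 4.54 RPKM. The lists for endothelial cells, microglia and macrophages, pericytes and fibroblasts, and blood had group medians of at most 0.17 RPKM. In these lists 1 of 6, 1 of 6, 2 of 6 and 1 of 4 genes reached 0.5 RPKM in at least 3 libraries.

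Ribosomal protein genes made up 5.08% ± 0.101 (SD, n = 3) of all RPKM in SVZ knockouts and 4.98% ± 0.49 (n = 3) in SVZ wild types. The share was 3.7% ± 0.188 (n = 3) in HC1 knockouts and 3.66% ± 0.235 (n = 3) in HC1 wild types. It was 1.76% ± 0.365 (n = 4) in HC2 knockouts and 1.66% ± 0.324 (n = 4) in HC2 wild types. The 3 kinds of spheres did not overlap in this share: the lowest SVZ library stood at 4.45% against 3.92% for the highest HC1 library, and the lowest HC1 library at 3.47% against 2.21% for the highest HC2 library. The genotypes overlapped in each kind. The share depends on the sum over all genes. HC2 knockouts stood at 0.476 of HC1 knockouts in the share and at 0.556 in the summed RPKM of the ribosomal protein genes. These are bulk libraries, in which fewer cells of a type and less RNA per cell cannot be told apart.

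A value was present in all 20 libraries for 77 genes. Among the highest mean levels over the libraries were those of Rpl8 (1080 RPKM), Rps3 (1030) and Rpl4 (793). Rps3 forms part of the mRNA entry channel of the small subunit, and Rpl4 lines the exit tunnel through which the new peptide leaves the large subunit. At the low end, apart from 3 duplicate genes, were Rps12 (68.0 RPKM) and Rpl36 (69.4). Within SVZ knockouts the 77 genes spanned 16.1-fold in mean RPKM, from Rpl36 at 84.8 to Rps3 at 1360. In HC2 knockouts the lowest mean was that of Rps29 at 14.8 RPKM. The number above 100 RPKM was 76 of 77 in SVZ knockouts, 71 in HC1 knockouts and 47 in HC2 knockouts.

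**Figure D1:**
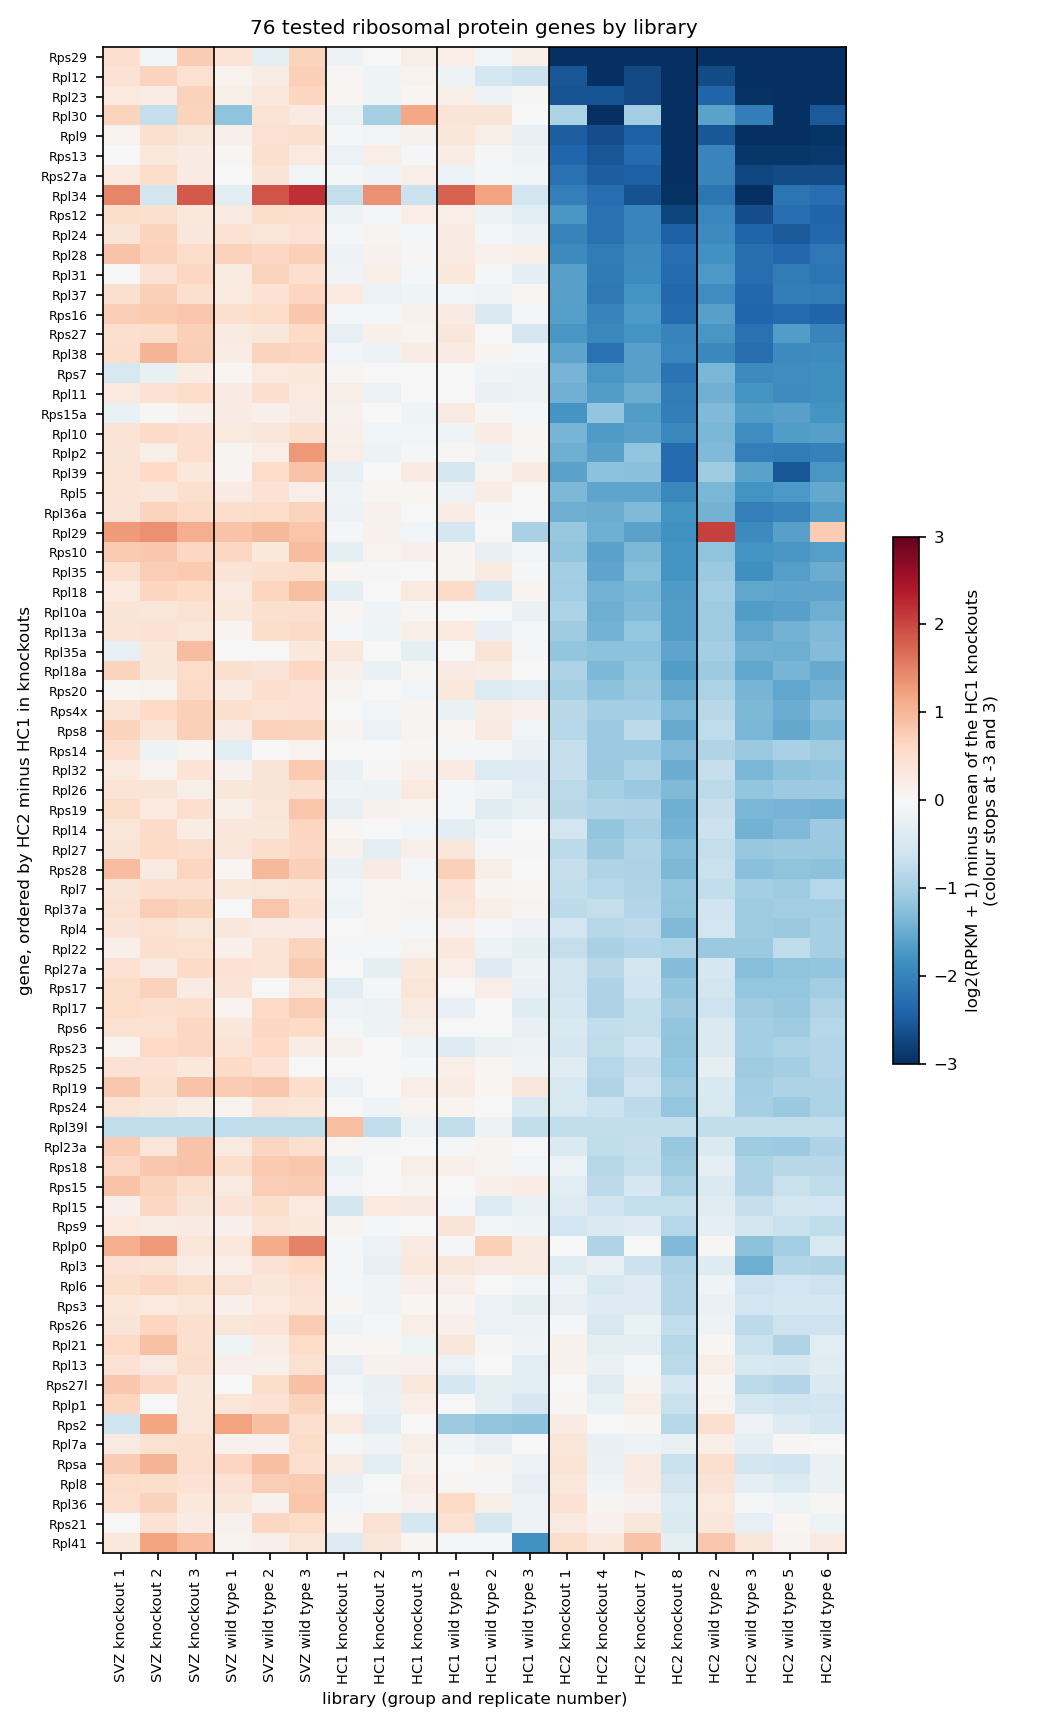
Heat map of 76 of the 78 tested ribosomal protein genes (rows, ordered by their difference between HC2 and HC1 knockouts) in the 20 libraries (columns). Colour is log2(RPKM + 1) minus the mean of the HC1 knockouts, with red higher and blue lower, and SVZ columns are mostly pale red while HC2 columns are mostly blue except in the lowest rows, which end with Rpl41, and in the Rpl29 row for 2 wild types.

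All differences below were fitted with limma on log2(RPKM + 1) over the 20 libraries and the 16403 genes that reached 0.5 RPKM in at least 3 libraries, and a gene was called at an adjusted p under 0.05 (Benjamini-Hochberg over those genes). Of the 80 ribosomal protein genes 78 passed this filter. The exceptions were Rpl3l and Rpl10l. Across the 6 groups the limma F test called 74 of the 78, beside 63.9% of all tested genes. The genes not called were Rpl36, Rpl41, Rps21 and Rpl39l. The highest group mean was an SVZ group in 76 of the 80 genes and the lowest an HC2 group in 71. The range of the group means was largest for Rps29 (5.05 on the log2 scale), Rpl34 (3.80), Rpl12 (3.72), Rpl23 (3.29) and Rpl9 (3.28). Among the tested genes it was smallest for Rpl36 (0.50), Rps21 (0.51) and Rpl7a (0.52), and the untested Rpl3l and Rpl10l had ranges of 0.11 and 0.16.

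The comparison of knockouts with wild types asks whether loss of Egfl7 goes with a change in these genes, and no ribosomal protein gene was called in any of the 3 kinds of spheres. The background was small too: 0.0122% of tested genes were called in SVZ, 0.0122% in HC1 and 0.0244% in HC2. The median difference, knockout minus wild type on the log2 scale, was 0.03 in SVZ (interquartile range from -0.05 to 0.13), 0.02 in HC1 (-0.09 to 0.11) and 0.08 in HC2 (0.01 to 0.14). The medians over all tested genes were 0.00, -0.01 and 0.00. The difference was positive in 49 of the 78 genes in SVZ, 41 in HC1 and 61 in HC2. Of the 16403 tested genes it was positive in 7727, 7487 and 8226. An unadjusted limma p under 0.05 was reached by 0 of the 78 genes in SVZ, 2 in HC1 and 1 in HC2. These are 0%, 2.56% and 1.28%, beside 2.31%, 3.94% and 3.93% of all tested genes. The 2 SVZ libraries whose Egfl7 level goes against their label enter the SVZ value, and without both of them the count was also 0 and the median 0.09.

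In SVZ spheres the smallest unadjusted p belonged to Rps7, at -0.38 (SE 0.19, adjusted p = 1). Next came Rpl21 (0.44), Rpl41 (0.61), Rps2 (-0.56) and Rpl38 (0.26), also with adjusted p = 1. In HC1 spheres it belonged to Rps2, a small subunit protein near the mRNA entry site. Rps2 stood at 161, 104 and 132 RPKM in the knockouts and at 60.6, 57.0 and 55.3 in the wild types. The groups did not overlap, and the wild types were the tighter set. The difference was 1.16 (SE 0.37, limma adjusted p = 0.976). In SVZ, where both genotypes were male, Rps2 stood at 85.3, 296 and 168 RPKM in knockouts and at 300, 245 and 185 in wild types, which overlap. The overlap rests on SVZ knockout 2 (296), since the other knockouts (85.3 and 168) lay below all the wild types, the other way from HC1. The Egfl7 level goes against the label in SVZ knockout 2 and also in SVZ wild type 3 (185). Leaving out SVZ wild type 3 alone would not end the overlap. The other genes of smallest p in HC1 were Rpl39l (0.55), Rpl12 (0.45), Rpl41 (0.64) and Rps27l (0.38). Rpl39l had a value in only 3 libraries, all of them HC1.

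In HC2 spheres the smallest p belonged to Rpl29, a large subunit protein. Its level in the wild types was 247, 15, 18.5 and 102 RPKM (replicates 2, 3, 5 and 6), and in the knockouts 26.5, 20.8, 18.8 and 16.2. Replicates 2 and 6 of the wild types were high, replicate 5 lay within the range of the knockouts and replicate 3 below it, so the groups overlapped. The difference was -1.32 (SE 0.60, limma adjusted p = 0.988). Rpl29 has 9 near-identical copies among annotated mouse transcripts. The other genes of smallest p were Rpl36a (0.27), Rpl3 (0.37), Rps27l (0.32) and Rps16 (0.26).

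**Figure D2:**
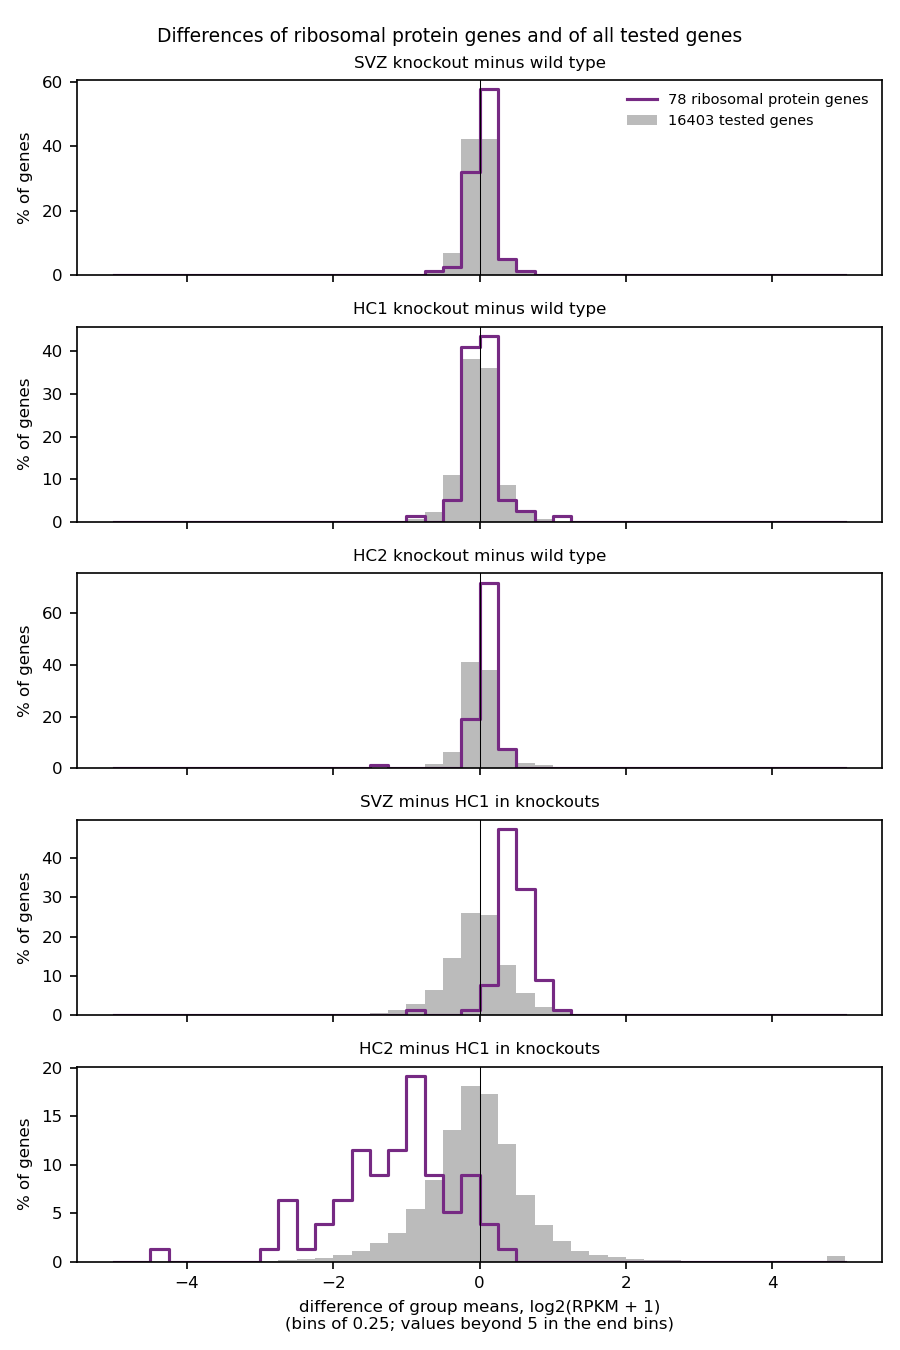
Distribution of the difference of group means on the log2(RPKM + 1) scale (horizontal axis, bins of 0.25) as a percentage of genes (vertical axis), for the 78 ribosomal protein genes (line) and the 16403 tested genes (grey bars), in 5 comparisons. The medians of the line are 0.03, 0.02 and 0.08 in the SVZ, HC1 and HC2 genotype panels, and the line lies to the right of the bars for SVZ minus HC1 (medians 0.45 and -0.02) and to the left for HC2 minus HC1 (medians -1.04 and -0.05).

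SVZ spheres had higher levels than HC1 spheres across nearly the whole set. Between knockouts, all male, the median difference was 0.45 on the log2 scale (1.37-fold, interquartile range 0.36 to 0.60), beside -0.02 for all tested genes. The difference was positive in 76 of 78 genes. Of the 78, 15 rose and 0 fell, where 2.63% of all tested genes rose and 4.43% fell. All 3 SVZ knockouts lay above all 3 HC1 knockouts in 54 of the 78, beside 19.4% of all tested genes. Region and culture day (3 against 5) cannot be told apart in this comparison.

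Rpl28 (NCBI gene 19943, chromosome 7 from 4792888 to 4794562 in the deposited table, mm10 per the submitters' notes), which lies at the surface of the large subunit, had the smallest p and is named after its values were seen. Its level was 254, 225 and 205 RPKM in SVZ knockouts and 124, 151 and 143 in HC1 knockouts. The groups were well apart, with the lowest SVZ value above the highest HC1 value. The difference was 0.70 (SE 0.13, limma adjusted p = 0.00688), and it was called without any 1 of the 6 libraries (adjusted p from 0.00803 to 0.0399) but not with no filter on low values (adjusted p = 0.263). The SVZ wild types stood at 225, 214 and 230 RPKM and the HC1 wild types at 166, 152 and 157.

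The 5 called genes of largest difference were Rps16, Rpl38, Rps18, Rps10 and Rpl19. Rps16, whose tail reaches toward the tRNA sites of the small subunit, stood at 421, 431 and 439 RPKM in SVZ knockouts and at 240, 241 and 272 in HC1 knockouts. Its difference was 0.78 (SE 0.21, limma adjusted p = 0.0347). Rpl38, a large subunit protein studied for its part in the translation of Hox mRNAs, stood at 193, 270 and 223 against 126, 120 and 154 RPKM. Its difference was 0.77 (SE 0.18, adjusted p = 0.0193). Neither gene's groups overlapped. Rps18 differed by 0.76 (SE 0.20, adjusted p = 0.031), Rps10 by 0.74 (SE 0.19, adjusted p = 0.0266) and Rpl19 by 0.72 (SE 0.17, adjusted p = 0.0214). Other called genes were Rpl6, Rpl7, Rpl10, Rpl23a, Rpl35, Rpl36a, Rps4x and Rps15, with differences from 0.46 (Rpl7) to 0.69 (Rps15).

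Both subunits shared the shift. The large subunit had 9 called of 44 with a median of 0.46, and the small subunit 6 of 31 with a median of 0.45. None of the 3 stalk genes was called, and their median was 0.35. The 2 genes with a negative difference were Rps7 (-0.15, adjusted p = 0.659) and the duplicate gene Rpl39l (-0.75, adjusted p = 0.0887). The count of calls lay between 1 and 6 when any 1 of the SVZ or HC1 knockout libraries was left out, at 0 with no filter on low values and at 43 in a fit of these 2 groups alone. The median lay between 0.44 and 0.53 without 1 library. Rps16 was not called without any 1 of the 6 (adjusted p from 0.063 to 0.113), and Rpl38 was not called without SVZ knockout 2 (0.109), HC1 knockout 1 (0.0721) or HC1 knockout 2 (0.0873). Rps18 was called without HC1 knockout 3 only, Rps10 without SVZ knockout 3 or HC1 knockout 3, and Rpl19 without SVZ knockout 2 or HC1 knockout 3. None of the 6 named genes was called with no filter on low values.

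The same comparison in wild types, with female HC1 and male SVZ donors, used other libraries for its means but the same estimate of the spread. There 20 of the 78 rose and 0 fell, beside 6.54% of all tested genes that rose and 10.6% that fell, and the median difference was again 0.45. The 5 largest among those called were Rps2 (2.03), Rps27l (0.85), Rpl12 (0.80), Rplp1 (0.76) and Rpl8 (0.74). Genes called in both genotypes numbered 6, among them Rpl28, Rpl36a, Rps10, Rps16 and Rps18. They were 40% of those called in knockouts and 30% of those called in wild types. The same shares over all tested genes were not computed.

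Genes that serve the making of ribosomes were read beside them, from lists written with the earlier results known, and the share of all tested genes that rose was the same 2.63%. Of 51 ribosome assembly factors 7 rose in SVZ knockouts over HC1 knockouts and 0 fell, with a median of 0.50. Nop10, of the complex that places pseudouridines in ribosomal RNA, rose by 1.05 (SE 0.26, limma adjusted p = 0.0225). Pes1, needed for maturation of the large subunit, rose by 0.50 (adjusted p = 0.0382). Of 18 other genes with TOP mRNAs 5 rose and 0 fell (median 0.37), among them Pabpc1, the poly(A)-binding protein, at 0.52 (adjusted p = 0.0154). Of 77 mitochondrial ribosomal protein genes 2 rose (median 0.26). Of 15 RNA polymerase I genes 1 rose, Polr1c at 0.44 (adjusted p = 0.0432). None of 18 genes of mTORC1, LARP1 and Myc was called (median 0.03).

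Of 25 cell cycle genes none was called between the knockouts, where their median difference was 0.86. Between the wild types 3 of the 25 rose and the median was 1.39. Their mean log2 level was 7.07 ± 0.03 (SD, n = 3) in SVZ knockouts and 6.24 ± 0.23 (n = 3) in HC1 knockouts. Their part in the ribosomal protein difference was not tested.

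**Figure D3:**
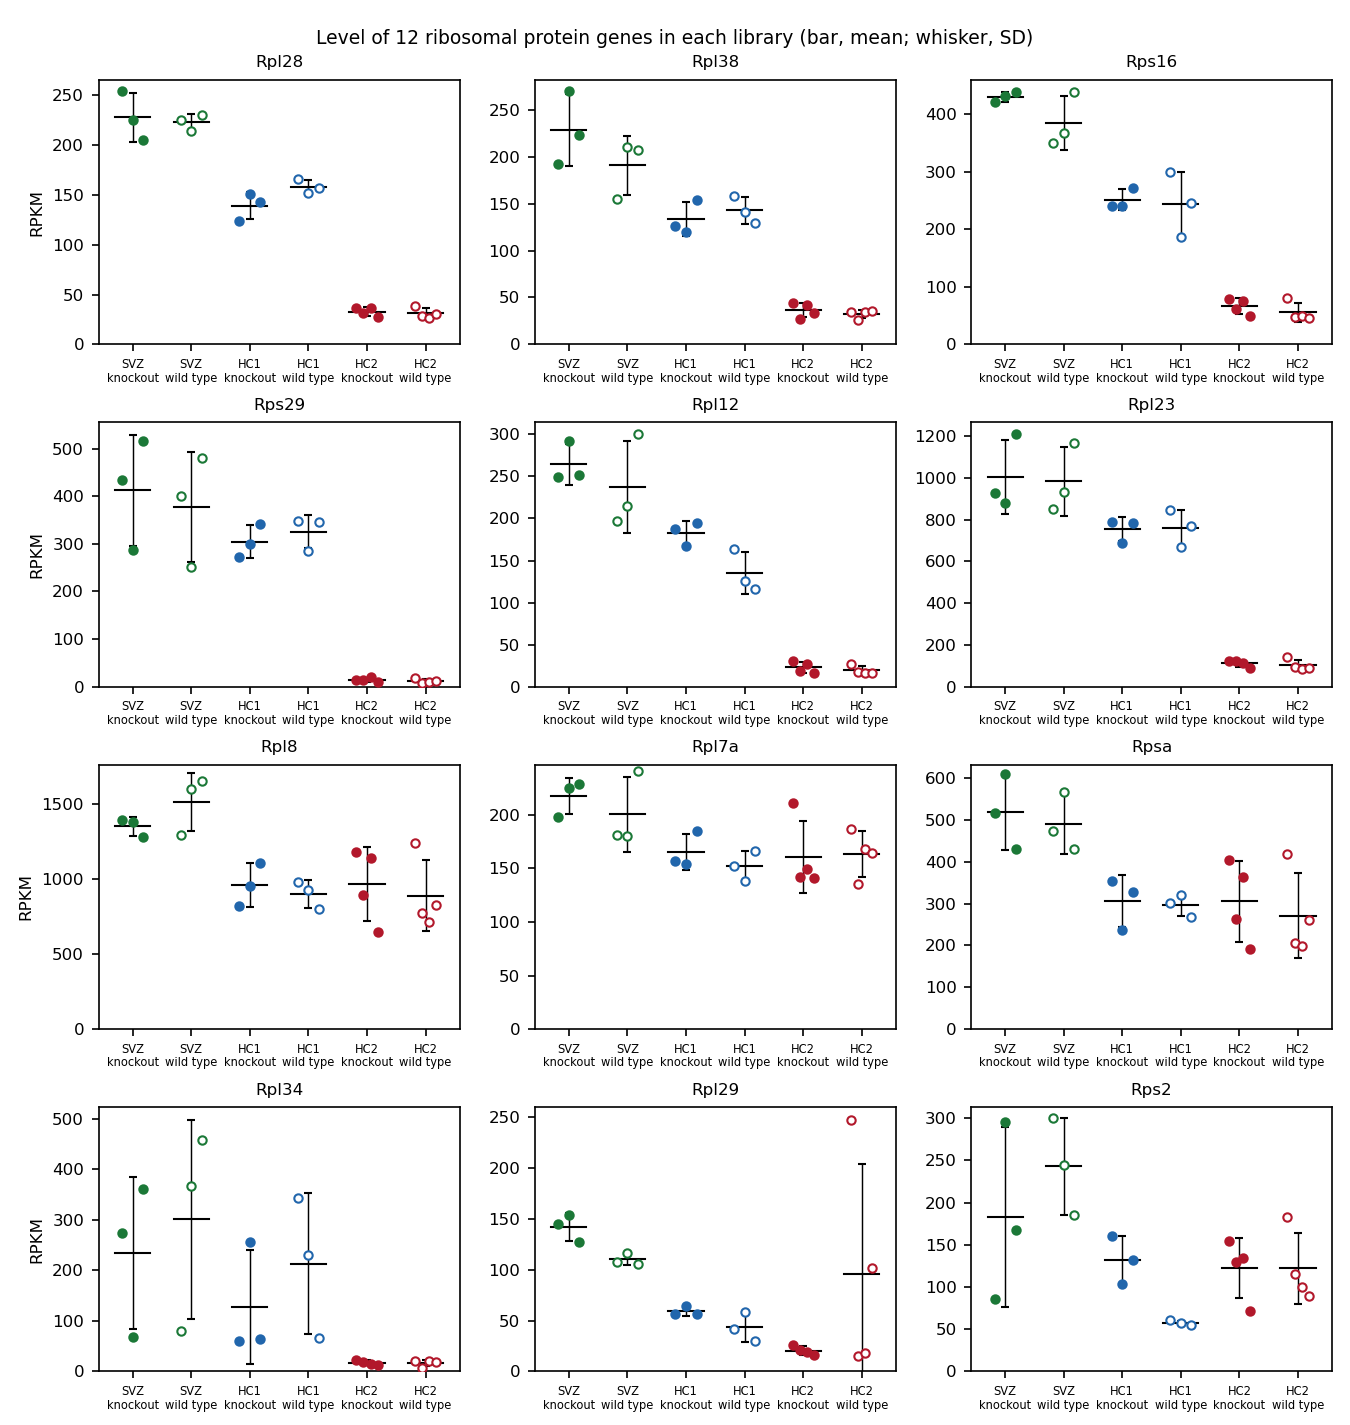
RPKM (vertical axis, from 0) of 12 ribosomal protein genes in each library of the 6 groups (horizontal axis), with filled circles for knockouts, open circles for wild types, a bar at the mean and a whisker of 1 SD. Rpl28, Rpl38 and Rps16 step down from SVZ to HC1 to HC2, Rps29, Rpl12 and Rpl23 are far lower in HC2 than in the first round (Rpl23 at 141 RPKM or less), Rpl8, Rpl7a and Rpsa overlap between HC1 and HC2, and Rpl34, Rpl29 and Rps2 differ between libraries of 1 group.

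The difference between sphere rounds was larger and uneven. HC2 knockouts had lower levels than HC1 knockouts in 74 of 78 genes. Of the 78, 63 fell and 0 rose, where 22.3% of all tested genes fell and 16.1% rose. The median was -1.04 on the log2 scale (0.488-fold), beside -0.05 for all tested genes. The interquartile range ran from -1.66 to -0.66, a width of 1.00 against 0.24 for SVZ minus HC1. All 4 HC2 knockouts lay below all 3 HC1 knockouts in 59 of the 78, beside 24.8% of all tested genes. This comparison shares the HC1 knockouts with the SVZ comparison, so the 2 are not independent.

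Small nuclear and other noncoding RNAs changed far more between the rounds and stand beside each result on HC2. Rn7sk averaged 9.12 RPKM in HC1 knockouts and 28500 in HC2 knockouts. Rn7s1, an RNA of the signal recognition particle, averaged 3.64 and 42900, and Rpph1, the RNA of RNase P, 0.26 and 11400. The labels state exon capture of ribosome-depleted total RNA for all libraries. Sphere round, depth and the make-up of the libraries cannot be told apart here.

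Rps29 (NCBI gene 20090, chromosome 12 from 69157722 to 69159186, minus strand), a zinc-binding protein of the small subunit, fell most. It stood at 273, 300 and 342 RPKM in HC1 knockouts and at 14.8, 13.3, 20.4 and 10.6 in HC2 knockouts. No HC2 library came near an HC1 library. The difference was -4.31 (SE 0.28, 0.0506-fold, limma adjusted p = 2.59e-09). Rpl12, at the base of the stalk, fell from 187, 167 and 195 RPKM to 30.1, 18.9, 27.1 and 16.1 (-2.98, SE 0.21, adjusted p = 1.05e-08). Rpl23 fell from 788, 689 and 786 RPKM to 124, 124, 115 and 87.4 (-2.74, SE 0.18, adjusted p = 2.76e-09). Rpl9, near the stalk base, changed by -2.70 (SE 0.19, adjusted p = 5.75e-09). All groups of these 4 genes were apart.

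Rpl30 was uneven. It stood at 208, 118 and 530 RPKM in HC1 knockouts and at 122, 11.9, 114 and 8.34 in HC2 knockouts. The groups overlapped at 118 and 122 RPKM. The difference of -2.71 (SE 0.88, limma adjusted p = 0.0215) was no longer called without HC1 knockout replicate 3 (-2.13, adjusted p = 0.111), HC2 knockout replicate 4 (-2.22, adjusted p = 0.0689) or HC2 knockout replicate 8 (-2.06, adjusted p = 0.071). It was also not called with no filter on low values (adjusted p = 0.0942) or in a fit of only the groups compared (adjusted p = 0.0857).

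Other genes did not differ beyond their spread. Rpl8, a core protein near the peptidyl transferase centre, stood at 819, 956 and 1110 RPKM in HC1 knockouts and at 1180, 892, 1140 and 647 in HC2 knockouts. These ranges overlapped fully (-0.03, SE 0.20, adjusted p = 0.934). Rpsa, which also has a role as the laminin receptor precursor, stood at 355, 237 and 328 against 405, 264, 363 and 191 RPKM (-0.04, SE 0.26, adjusted p = 0.913). Rps21, which binds next to Rpsa, differed by 0.08 and Rpl7a by -0.06. The highest difference was that of Rpl41, a very short protein, at 0.35 (SE 0.37, adjusted p = 0.482).

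By subunit, 37 of 44 large subunit genes fell (median -1.17) and 25 of 31 small subunit genes (median -0.81). Among the stalk genes, which recruit elongation factors, only Rplp2 fell in knockouts. It stood at 340, 270 and 291 RPKM in HC1 knockouts and at 107, 96.4, 130 and 59.3 in HC2 knockouts (-1.65, SE 0.28, adjusted p = 0.000149). Rplp1 differed by -0.15 (adjusted p = 0.611) and Rplp0 by -0.55 (adjusted p = 0.26), although the products of Rplp1 and Rplp2 pair with each other in the stalk. In wild types Rplp2 (-1.85, adjusted p = 5.06e-05) and Rplp0 (-0.98, adjusted p = 0.0463) fell, and Rplp1 differed by -0.13 (adjusted p = 0.668). The difference between these 3 genes was not tested.

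In wild types 62 of the 78 fell between the rounds, beside 23.4% of all tested genes, and 2 rose, beside 14.8%. The donors there were female in HC1 and male in HC2. The median was -1.08. The 2 that rose were Rpl41 (1.02, SE 0.37, limma adjusted p = 0.0378) and Rps2 (1.01, SE 0.35, adjusted p = 0.0291). The HC1 wild type values of Rps2 were the low ones given above. Rpl41 stood at 73.2, 72 and 20.8 RPKM in HC1 wild types and at 134, 96.2, 80.3 and 90.8 in HC2 wild types. The low value of 20.8 came from 1 library, and the F test did not call Rpl41. Leaving out single libraries was not run for this comparison. Genes called in both genotypes numbered 60, which is 95.2% of the calls in knockouts and 93.8% of those in wild types. The same shares over all tested genes were not computed, so this agreement cannot be read as particular to the ribosomal protein genes. Across the 78 genes the 2 sets of differences had a Pearson correlation of 0.94 and a Spearman correlation of 0.93, as a description over genes, which are not independent replicates. The group means of the 2 comparisons share no library. Both use the same estimate of the spread from the fit of all 20 libraries, and both share the rounds' library make-up. Rps29 was lowest in both (-4.74 in wild types).

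**Figure D4:**
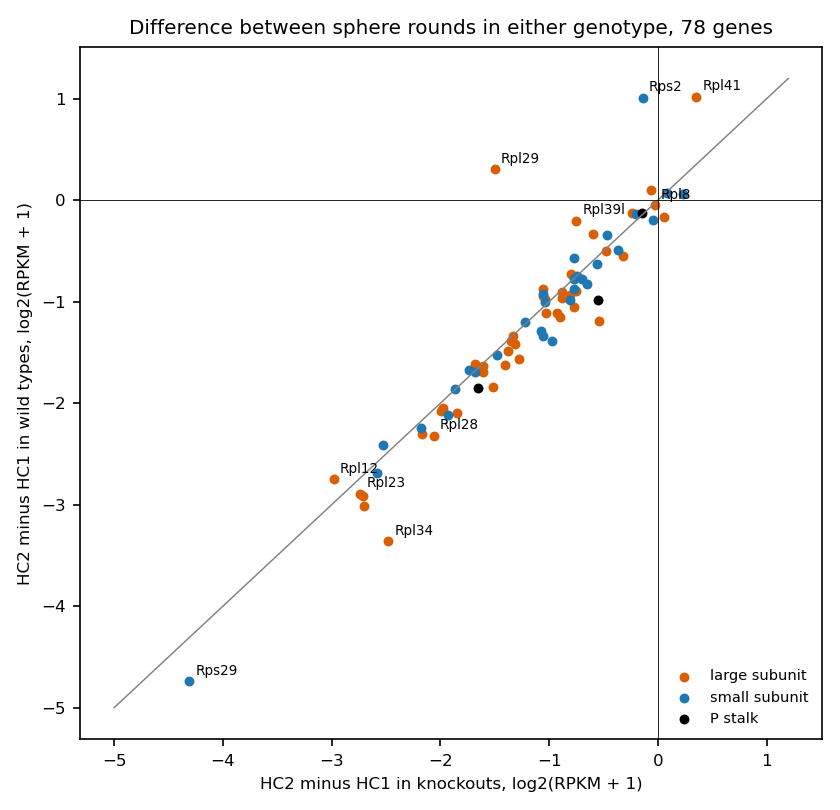
Difference between HC2 and HC1 on the log2(RPKM + 1) scale in knockouts (horizontal axis) and in wild types (vertical axis) for the 78 tested genes, coloured by subunit, with the line of equal values in grey. Most genes lie along the line from Rps29 (-4.31 and -4.74) to Rpl8 (-0.03 and -0.05), while Rpl29 (-1.50 and 0.31), Rps2 (-0.14 and 1.01) and Rpl41 (0.35 and 1.02) lie above it.

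The genes that fell most were compared by features that the name rule did not use. Over the 77 genes left when Rpl39l was set aside, the Spearman correlation of the difference between HC2 and HC1 knockouts was 0.23 with coding length and -0.25 with the number of near-identical copies, counted as other GENCODE M21 genes with at least 98% identity over 100 bases or more. These are descriptions across genes that share the same libraries. The median difference was -0.60 for the 10 genes without such a copy, -1.07 for the 29 genes with 1 or 2 copies and -1.18 for the 38 genes with 3 or more. Genes without a copy still spanned -1.06 to 0.23. For SVZ minus HC1 the corresponding medians were 0.35, 0.50 and 0.45.

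The table lists 14 of the near-identical copies as genes of their own, of 12 parent genes. They were counted by sequence match alone and include Wdr89, matched to Rplp2, at a mean of 3.76 RPKM in HC1 knockouts. Between HC1 and HC2 knockouts 6 of the 14 copies fell and 2 rose, and 10 of the 12 parents fell. Of all tested genes 22.3% fell and 16.1% rose. Among the copies that fell were Gm7429, a copy of Rpl30 (-3.50, limma adjusted p = 5.81e-11), and Gm5621, a copy of Rpl10 (-2.50, adjusted p = 4.92e-09). The copies that rose were Gm8210, a copy of Rpl29 (1.08, adjusted p = 0.0148), and Rpl37rt. The 4 copies whose symbol names the parent are described with it, a choice made after their values were seen, and none of these 4 fell. Rps27, a zinc-binding small subunit protein on chromosome 3, stood at 75.4, 98.4 and 95.5 RPKM in HC1 knockouts and at 25.9, 22.5, 25.2 and 21.6 in HC2 knockouts (-1.87, limma adjusted p = 2.1e-07). Its retrogene Rps27rt, on chromosome 9, stood at 557, 550 and 581 and at 578, 503, 491 and 408 RPKM (-0.20, adjusted p = 0.33). The retrogene was listed at the higher level in each of these libraries. Rpl37 fell by 1.98 (adjusted p = 7.06e-08), and Rpl37rt on chromosome 5 rose by 0.44 (adjusted p = 0.0479).

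Rpl31 fell by 1.99 (adjusted p = 3.24e-07), while Rpl31-ps12 on chromosome 16 differed by -0.23 (adjusted p = 0.263). Rpl34 fell by 2.48 (adjusted p = 0.0115), while Rpl34-ps1 on chromosome 6 differed by -0.29 (adjusted p = 0.22) and Gm4705, another copy of Rpl34, by -0.43 (adjusted p = 0.0732). The handling of reads that match both a gene and its copy is not stated by the labels or file headers, so the levels of the genes and their copies are uncertain. The difference between parent and copy was not tested.

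**Figure D5:**
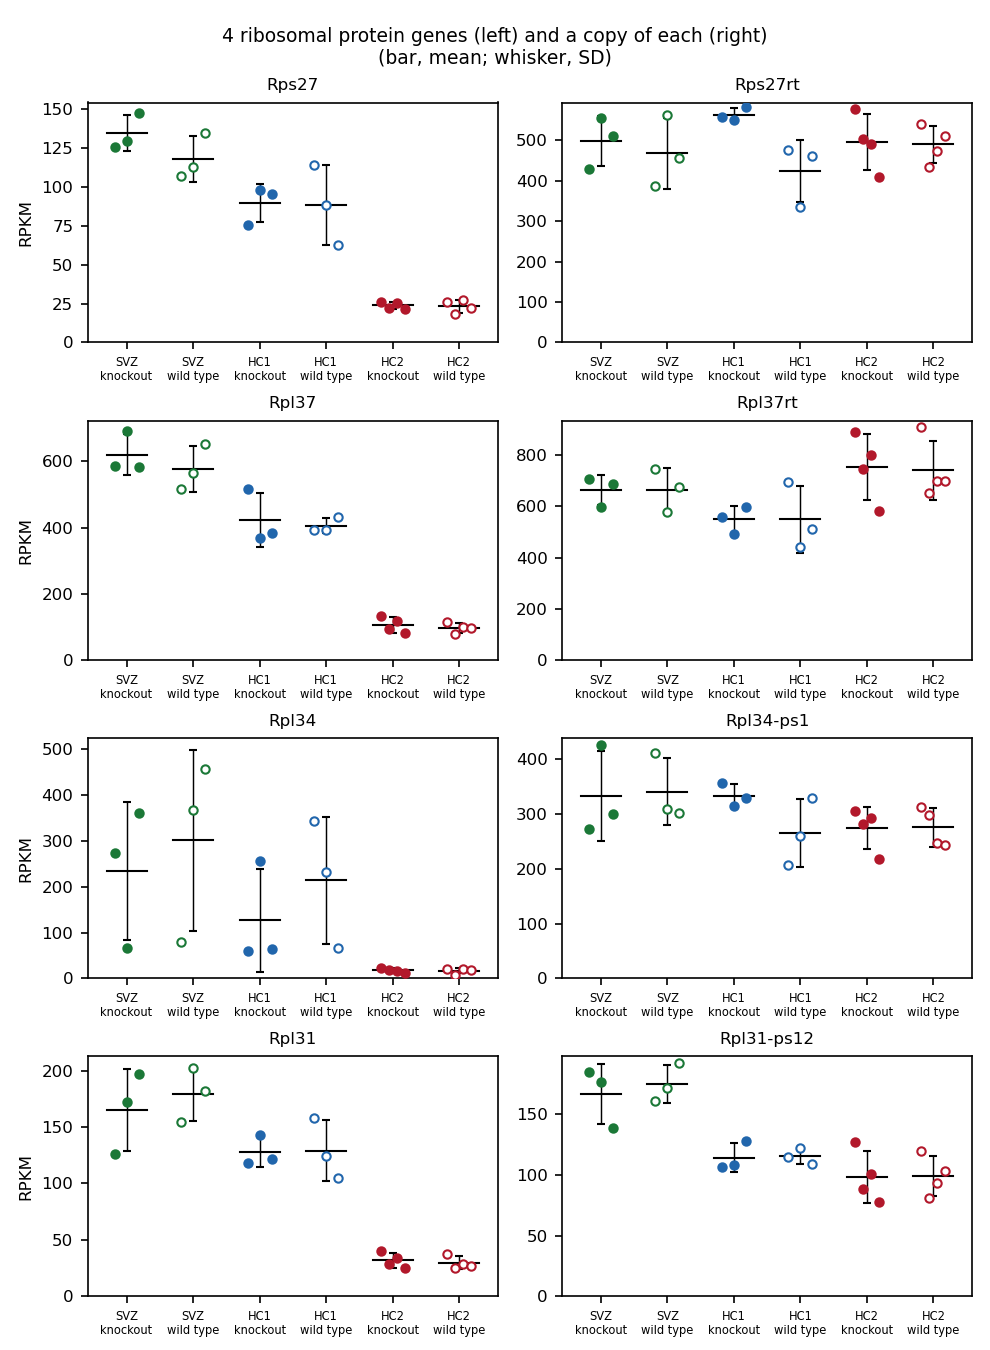
RPKM (vertical axis, from 0) of Rps27, Rpl37, Rpl34 and Rpl31 (left) and of the copy of each whose symbol names it (right), 4 of the 14 copies in the table, in each library of the 6 groups (horizontal axis), with filled circles for knockouts, open circles for wild types, a bar at the mean and a whisker of 1 SD. The genes on the left drop in HC2, to 135 RPKM or less in Rpl37, while the knockout means of the copies go from 563 in HC1 to 495 RPKM in HC2 (Rps27rt), 549 to 752 (Rpl37rt), 333 to 274 (Rpl34-ps1) and 114 to 98.7 (Rpl31-ps12).

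Rpl34 had 2 separate levels within the first round. It stood at 67.3, 79.5, 59.7, 63.3 and 66.4 RPKM in SVZ knockout 2, SVZ wild type 1, HC1 knockout 1, HC1 knockout 3 and HC1 wild type 3. The other 7 first-round libraries lay between 231 and 457 RPKM. The low libraries came from each of the 4 first-round groups. Rpl34-ps1 stood at 426, 411, 356, 328 and 329 RPKM in the low libraries and between 207 and 314 in the others. Within the first round the copy was highest in the 5 libraries in which the gene was lowest, with no overlap. This did not extend to HC2, where Rpl34 lay between 7.79 and 23.3 RPKM and Rpl34-ps1 between 218 and 313.

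Duplicate genes encode near relatives of a ribosomal protein, often with expression limited to some tissues. Rpl3l, known from skeletal and heart muscle, was at 0.141 RPKM or less in each library while Rpl3 averaged 213. Rpl10l, known from testis, was at 0.242 RPKM or less while its X-linked counterpart Rpl10 averaged 125. Rpl39l, also known from testis, had a value in 3 libraries: HC1 knockout 1 at 2.12 RPKM, HC1 knockout 3 at 0.524 and HC1 wild type 2 at 0.507. The level of Rpl39 averaged 202. Rpl39l passed the filter only through HC1, so its call between the rounds (-0.75, adjusted p = 0.0223) follows from the filter and supports nothing. The same holds for its difference between SVZ and HC1 spheres. Without Rpl39l and Rps27l, 62 of 76 genes fell and the median was -1.05.

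Rps27l differs from the others in being broadly expressed, and is known as a target of p53. It averaged 215 RPKM against 74.1 for Rps27. Between the rounds it differed by -0.20 (SE 0.23, adjusted p = 0.529), from 196, 179 and 258 RPKM to 210, 161, 221 and 146, where Rps27 fell by 1.87. The difference between the 2 was not tested.

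Genes on the X chromosome were read for the donor sex of HC1. Rps4x stood at 637, 607 and 677 RPKM in male HC1 knockouts and at 559, 751 and 703 in female wild types. Rpl10 stood at 167, 142 and 141 against 136, 174 and 153, Rpl36a at 94.7, 114 and 106 against 123, 101 and 104, and Rpl39 at 201, 236 and 282 against 167, 253 and 285. The groups overlapped in all 4, and none was called. All 4 fell between the rounds in knockouts, with differences of -1.07 (Rps4x), -1.66 (Rpl10), -1.52 (Rpl36a) and -1.61 (Rpl39).

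The related lists were read between HC2 and HC1 knockouts beside the same 22.3% of all tested genes that fell and 16.1% that rose. Of the 51 assembly factors 24 fell and 1 rose (median -0.48). Fbl, the methyltransferase of the box C/D particles, changed by -2.66 (limma adjusted p = 2.56e-07) and Ncl, nucleolin, by -2.63 (adjusted p = 1.07e-07). Of the 18 other TOP genes 9 fell and 1 rose (median -0.53). Tpt1 changed by -2.55 (adjusted p = 4.99e-09) and Pabpc1 by -2.26 (adjusted p = 7.92e-11), while Eif3k rose by 0.33 (adjusted p = 0.0411). Of 77 mitochondrial ribosomal protein genes 20 fell and 12 rose, with a median of -0.09, close to the -0.05 of all tested genes. In mTORC1, LARP1 and Myc 5 of 18 fell, among them Larp1 (-0.83, adjusted p = 0.00023), and 3 rose, among them Mtor (0.75, adjusted p = 5.72e-06). Of 6 ribosomal proteins outside the name rule 5 fell and all 6 differences were negative, with Rpl22l1 at -2.38 (adjusted p = 7.97e-07). Of 15 RNA polymerase I genes 4 fell and 0 rose (median -0.23).

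Of the 25 cell cycle genes 4 fell and 0 rose between HC1 and HC2 knockouts, and all 25 differences were negative (median -1.09). In wild types 12 of the 25 fell (median -1.75). Marker lists of other cell types differed too. The group median of the neuron list was 8.25 RPKM in HC1 knockouts and 3.43 in HC2 knockouts, and that of the oligodendrocyte list 4.54 and 0.667. The neural stem and progenitor list stood at 115 and 215 RPKM. The part of these lists in the ribosomal protein difference was not tested.

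Libraries of HC2 differed among themselves. The mean log2 level over the ribosomal protein genes was 7.09, 6.76, 6.95 and 6.39 in HC2 knockouts 1, 4, 7 and 8, and 7.14, 6.52, 6.55 and 6.68 in HC2 wild types 2, 3, 5 and 6. Wild type 2 and knockouts 1 and 7 were the highest and knockout 8 the lowest. The mean log2 level of the 25 cell cycle genes was 6.05, 4.39, 6.11 and 4.04 in the same knockouts and 6.30, 3.18, 2.39 and 4.12 in the same wild types. The same 3 libraries were highest on both measures. Whether either measure bears on the other was not tested.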

How the data were processed

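RNA was sequenced from 20 neurosphere libraries as paired reads of 100 bases. The authors deposited linear RPKM per gene with decimal commas. The submitters' processing notes name FastQC 0.11.5, DESeq2 and the builds mm10 and GRCm38, while the aligner, the counting method and the gene lengths used are not given in those sources. No per-sample column was left unused. Blank cells were read as 0. Other values deposited by the authors beside the RPKM were not used. DESeq2 was not rerun because the values are not counts. The genes and lists were chosen with earlier results of these data known.

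Levels were analysed as log2(RPKM + 1), a scale that understates changes of low genes. The 16403 genes (44.7%) with at least 0.5 RPKM in 3 or more libraries were fitted with limma 3.58.1 in R 4.3.3, with 1 mean for each of 6 groups, a trended and robust prior and Benjamini-Hochberg adjustment. Depth was recovered only as a ratio between libraries, so no counting interval is given. Whether the p-values measure more than the spread between these libraries depends on each mouse number marking a separate animal. Genes named were the duplicate genes and their counterparts, stalk genes, Rpsa, X-linked genes, the 5 highest and 5 lowest in level and in range, and the 5 largest called differences per direction (or the 5 smallest p). No 2 libraries were identical. Alternatives covered the pseudocount, filter, scaling, gene list, samples fitted, a replicate block and leaving out each library. Copies were found with blastn among GENCODE M21 transcripts, and start sequences came from RefSeq (GRCm38.p6). A few genes that the naming rule covers are not reported here by name and not shown in the heat map, though they enter the counts and medians.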

Additional observations from a re-analysis of the deposited data

Results flagged for a closer look

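In 19 of 154 checked groups of 4 HC2 libraries, the highest or lowest library stood apart from the other 3 on the log2 scale by Dixon's criterion. Chance flags about 1 in 20 groups if they are independent, which genes read in the same libraries are not. Most of the 19 were the highest value of HC2 wild type 2. The same share over all tested genes was not computed. In HC2 wild types, replicate 2 was the highest for Rpl37a (144 RPKM), Rpl12 (27.5), Rpl6 (206), Rps19 (197), Rps16 (80.4), Rpl18 (125), Rps3 (946), Rpl27a (193), Rps13 (38.3), Rplp2 (118), Rplp1 (725), Rps27a (69.8), Rpl27 (87.4), Rps7 (63.9) and Rps28 (156). In each of these genes the other 3 wild types lay close together, as in Rps13 at 19.7 to 19.8 RPKM, which the criterion itself requires. Replicate 3 of the HC2 wild types was the lowest for Rpl34 (7.79 RPKM) and Rpl38 (26.5). In HC2 knockouts, replicate 1 was the highest for Rpl7a (211 RPKM) and replicate 8 the lowest for Rpl35a (65). HC2 wild type 2 also had the highest cell cycle level of its group (6.30). The part of any of these in the deviation was not tested.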

How the results depend on the processing

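No ribosomal protein gene was called between genotypes under any alternative run, and without 1 library the median difference lay between -0.05 and 0.11 in SVZ, -0.03 and 0.08 in HC1 and -0.01 and 0.21 in HC2. The 15 calls of SVZ minus HC1 in knockouts became 0 with no filter on low values, 26 with libraries set to the same median, 26 with that median taken over genes of at least 10 RPKM in each library (chosen after seeing the data), 43 in a fit of only the groups compared and 1 to 6 without 1 library. For members with no near-identical copy (chosen after seeing the data), 2 of 11 rose, beside 2.63% of all tested genes. Its median of 0.45 became 0.34 for those 11 genes and lay between 0.44 and 0.53 without 1 library, 0.53 being the value without HC1 knockout replicate 3. Without HC1 knockout replicate 2, Rpl39l was called lower, but it passed the filter only through HC1, so this call supports nothing. For HC2 minus HC1 in knockouts, the 63 calls became 58 to 64 without 1 library, and the median of -1.04 lay between -1.12 and -0.91. For the 11 genes with no near-identical copy 8 fell, beside 22.3% of all tested genes, and the median was -0.65. The 8 include Rpl39l, whose call follows from the filter, and without Rpl39l the median was -0.60 over 10 genes. The F test called 72 to 74 genes without 1 library. Over the kept genes the median of HC2 minus HC1 knockouts was -0.10 on the log2 scale, and with libraries set to the same median the ribosomal protein median was -0.93. The cause of these changes was not tested. Of 168 recomputed differences of 12 single called results, 135 were still called, 33 were no longer called and 0 changed sign. Same-numbered replicates did not deviate together (correlations of the deviations from the group means, -0.26 to 0.05), and in SVZ and HC1 they carry different mouse numbers. Mouse numbers that recur in HC2 within a genotype gave -0.25 to 0.24, and the labels do not say whether these are the same animals. With the replicate block SVZ minus HC1 in knockouts gave 33 calls, HC2 minus HC1 61, and the genotype comparisons in SVZ and HC1 0. No paired analysis was possible for HC2 knockouts against wild types because the groups share no replicate number. Depth in reads is unknown, since RPKM keeps only its ratio between libraries.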
